A study of Mus musculus with 12 samples.

Results

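The comparison described here sets the cerebral cortex of mice labelled APP/PS1/Sirt3-/- against that of wild-type (WT) mice. Its members were chosen by label alone and are 6 of the 12 RNA-seq libraries of the series, replicates 1, 2 and 4 of each genotype. By label, the double mutant carries the human transgenes of the APP/PS1 stock, together with a global knockout of Sirt3, and the WT mice carry none of these. Below, double mutant stands for the libraries labelled APP/PS1/Sirt3-/-. All mice were labelled female and aged 8 months, so both groups share sex by label, age and tissue, and the labels name no treatment. The other 6 libraries, 3 labelled APP/PS1 and 3 labelled Sirt3-/-, enter here as the single mutants and share in the estimate of spread.

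Several features of the model limit it. Sirt3 was deleted in every cell type and not only in neurons or glia. The APP/PS1 stock expresses both human transgenes from the mouse prion protein promoter, and its background is C57BL/6. The study's methods name WT mice and global Sirt3 knockouts of both 129 Sv and C57BL/6 background, and the labels do not give the strain of the sequenced mice. Genotype and any difference of strain that goes with it cannot be told apart in these libraries. The study's methods describe separate mice, and more of them in each group than the libraries analysed here. The labels do not tie a library to a mouse, so p-values measure the spread between these libraries.

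SIRT3 is the main protein deacetylase of the mitochondrial matrix and acts on enzymes of fuel oxidation and antioxidant defence. The APP/PS1 transgenes raise production of the amyloid β peptide, which collects in plaques in the cortex. Microglia that gather at plaques switch on a set of genes called the disease-associated program, which includes Cst7, Clec7a, Itgax and Trem2. Insulin-degrading enzyme (Ide) and neprilysin (Mme) are peptidases that break down amyloid β.

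Levels are given in CPM, the reads of a gene as a rate over all reads counted in its library, with TMM factors. The libraries held 15310104 to 17918122 counted reads in WT and 16909429 to 18601362 in the double mutant. A level of 1 CPM thus rests on few reads in a library, and the counting intervals below cover counting error only. A gene was called when the edgeR quasi-likelihood test gave an adjusted p under 0.05 over all genes tested. The main fit used all 12 libraries, and a second fit used only the 6 libraries compared. An exact permutation test of 1 gene between groups of 3, run two-sided, cannot give a p below 0.1, so no such test was used.

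The libraries did not all match their labels. Sirt3 was 60.8, 63.6 and 64.5 CPM in WT replicates 1, 2 and 4 and 28.6, 0.211 and 27.7 CPM in the double mutant. Replicates 1 and 4 of the double mutant therefore lay between 0 and the WT level, and only replicate 2 was near 0, as the Sirt3-/- libraries were (0.186, 0.467 and 0.443 CPM). Replicate 4 of every group held Y-linked reads (101.7 to 114.2 CPM over the Y-linked check genes) and almost no Xist, although labelled female. The main fit gave Sirt3 a log2 fold change of -1.75 (edgeR adjusted p = 0.274), and without replicates 1 and 4 of the double mutant it was -8.18. That fit has replicate 2 alone as the double mutant and assumes that it varies like the other groups. The libraries it leaves out were chosen by their Sirt3 reads, so its value for Sirt3 follows from that choice.

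The deposited table held 35275 genes, and 16673 passed the low-count filter. The main fit called 129 genes higher in the double mutant, 0.774% of the genes tested, and 59 lower, 0.354%. In all 188 the CPM of the 3 double mutant libraries lay apart from those of the 3 WT libraries. Such separation by itself was common, with 13.0% of all genes tested higher without overlap and 12.5% lower without overlap. The median log2 fold change was 0.82 among the rises and -0.62 among the falls, and 52 rises and 12 falls were at least 2-fold. Double mutant replicate 4 was the lowest of its group for 72 of the 129 rises, and replicate 2 the highest for 64. Of the rises 123 were protein-coding genes, and of the falls 57. The fit of 6 libraries tested 16113 genes and called 391 higher (2.43%) and 361 lower (2.24%), with 180 of the 188 genes of the main fit among them. These shares are the background for every count of called list members below.

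The number of calls depended strongly on single libraries. Without WT replicate 1 the main fit called 7 genes higher and 2 lower, and without WT replicate 2 or WT replicate 4 it called 2 higher and 0 lower. Without double mutant replicate 1 it called 4 higher and 0 lower, without replicate 2 it called 21 and 8, and without replicate 4 it called 437 and 374. Leaving out libraries of the single mutants moved the counts as well, from 19 higher and 12 lower without APP/PS1 replicate 2 to 580 and 592 without Sirt3-/- replicate 2. Without both double mutant libraries that hold Sirt3 reads, 121 genes were called higher and 74 lower, of which 48 were among the 188. Without replicate 4 of every group, the libraries with Y-linked reads, 47 were called higher and 20 lower, of which 19 were among the 188. With regional marker levels as covariates, described below with those markers, none of the 188 was called. In each of the fits without libraries all 188 genes kept their direction. This follows from the lack of overlap between the groups in these genes and is no separate support.

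**Figure D1:**
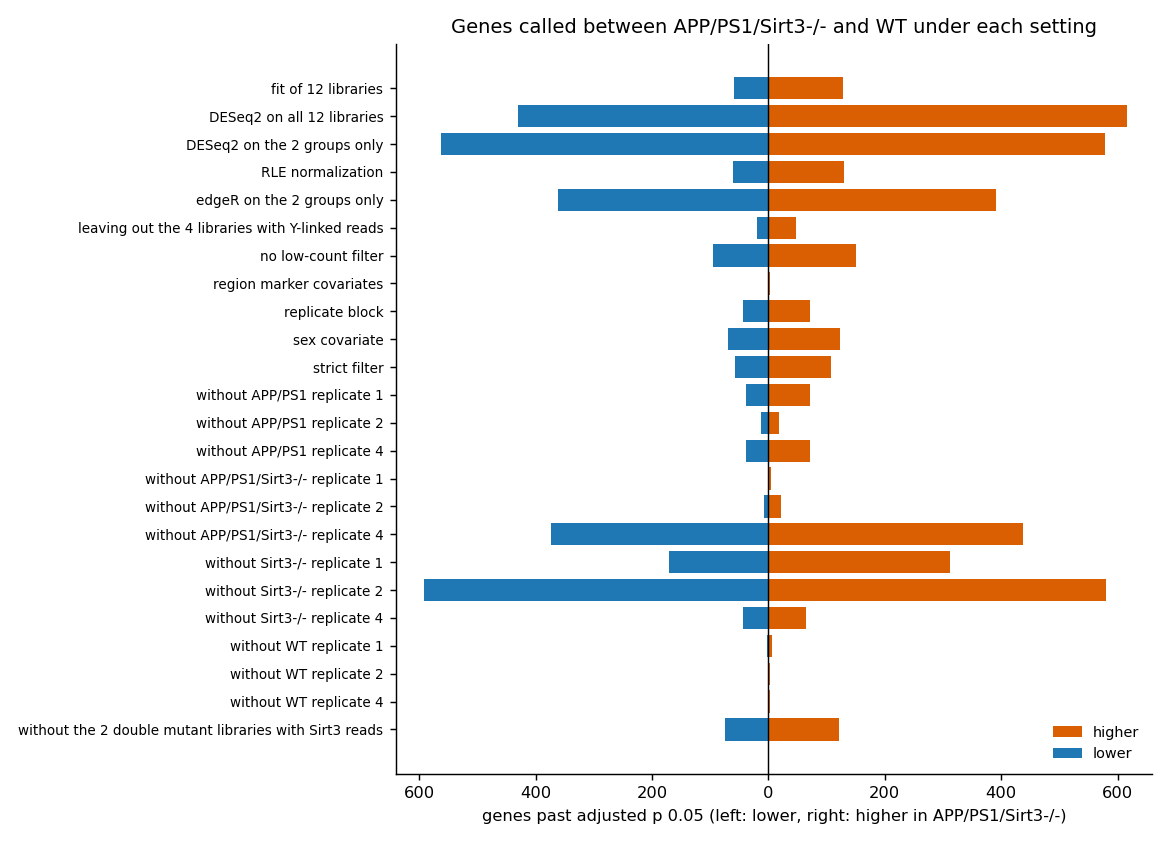
Genes called between APP/PS1/Sirt3-/- and WT libraries under each setting (horizontal axis: number of genes past an adjusted p of 0.05, higher to the right and lower to the left; vertical axis: the setting). The main fit called 129 higher and 59 lower, and over all settings the counts ran from 2 to 616 higher and from 0 to 592 lower.

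App and Prnp were higher in all 3 double mutant libraries than in any WT library, and both passed the threshold in the fit of 6 libraries but not in the main fit. App, the amyloid precursor gene (ENSMUSG00000022892, chromosome 16 from 84954440 to 85173707, GRCm38), was 1828, 1786 and 1755 CPM in WT and 3295, 3856 and 3479 CPM in the double mutant. Every double mutant library lay far above every WT library. The main fit gave it a log2 fold change of 0.99 with a standard error of 0.25 (edgeR adjusted p = 0.0765), and it was called under 5 of 23 alternatives. The APP/PS1 libraries, which share in the spread of the main fit, held 3614, 3794 and 1623 CPM, so replicate 4 labelled APP/PS1 lay below WT. Prnp, the prion protein gene whose promoter drives the transgenes, was 635, 588 and 580.4 CPM in WT and 1500.1, 1677 and 1489.6 CPM in the double mutant. As with App, every double mutant library lay above every WT library (log2 fold change 1.37, edgeR adjusted p = 0.0629). Whether reads of the transgenes were counted in Prnp was not tested.

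Of 28 genes of the disease-associated microglia program, 1 was called higher in the main fit and 8 were in the fit of 6 libraries (Ccl3, Ccl6, Cd83, Clec7a, Cst7, Itgax, Trem2 and Tyrobp). Over all genes tested these fits called 0.774% and 2.43% higher. Cst7, encoding cystatin F, an inhibitor of lysosomal cathepsins, was 0, 0.199 and 0.190 CPM in WT and 6.18, 6.70 and 5.03 CPM in the double mutant. These levels stand on 6 reads in the 3 WT libraries together and 321 in the 3 double mutant libraries (45.9-fold, exact 95% counting interval 21.9 to 132). Clec7a, the β-glucan receptor dectin-1, was 0.343, 0 and 0.0635 CPM in WT and 1.79, 1.64 and 1.27 CPM in the double mutant. Itgax, the integrin chain CD11c, was 0.628, 0.465 and 0.317 CPM in WT and 3.35, 2.22 and 2.43 CPM in the double mutant. For each of the 3 genes the lowest double mutant library exceeded the highest WT library several fold.

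The chemokine genes of the list showed the same order. Ccl3 was 0.114, 0.133 and 0.190 CPM in WT and 1.27, 1.06 and 1.10 CPM in the double mutant, on 7 reads in the 3 WT libraries together and 61 in the 3 double mutant libraries (7.81-fold, exact 95% counting interval 3.59 to 20.3). Ccl6 was 0.514, 0.864 and 1.21 CPM in WT and 3.23, 3.85 and 2.37 CPM in the double mutant. Cd83, an activation marker of myeloid cells and lymphocytes, was 9.42, 12.8 and 9.59 CPM in WT and 25.1, 25.5 and 18.3 CPM in the double mutant. It was the single member of the list called in the main fit (log2 fold change 1.12, standard error 0.20, adjusted p = 0.0317, edgeR), and it kept the call without the libraries that hold Sirt3 reads (adjusted p = 0.0429, range over all alternatives 4.42e-07 to 0.615).

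The receptor Trem2 and its partner differed less in fold. Trem2, the lipid receptor of microglia, was 17.3, 17 and 19.2 CPM in WT and 31.3, 24.9 and 25.2 CPM in the double mutant. Tyrobp, its signalling adaptor, was 11.6, 13 and 11.4 CPM in WT and 19.8, 17.7 and 18.9 CPM in the double mutant. None of the 28 members was called lower in either fit, and 14 were higher without overlap, beside 13.0% of all genes tested. The median log2 fold change of the list was 0.38, beside 0.01 over all genes tested. In the APP/PS1 group, whose spread enters the main fit, Cst7 was 2.94, 15.6 and 0.0571 CPM in replicates 1, 2 and 4. Replicate 4 labelled APP/PS1, low in App, was thus low in Cst7 as well. Against APP/PS1 the double mutant differed in Cst7 by -0.04 on the log2 scale (edgeR adjusted p = 0.997).

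**Figure D2:**
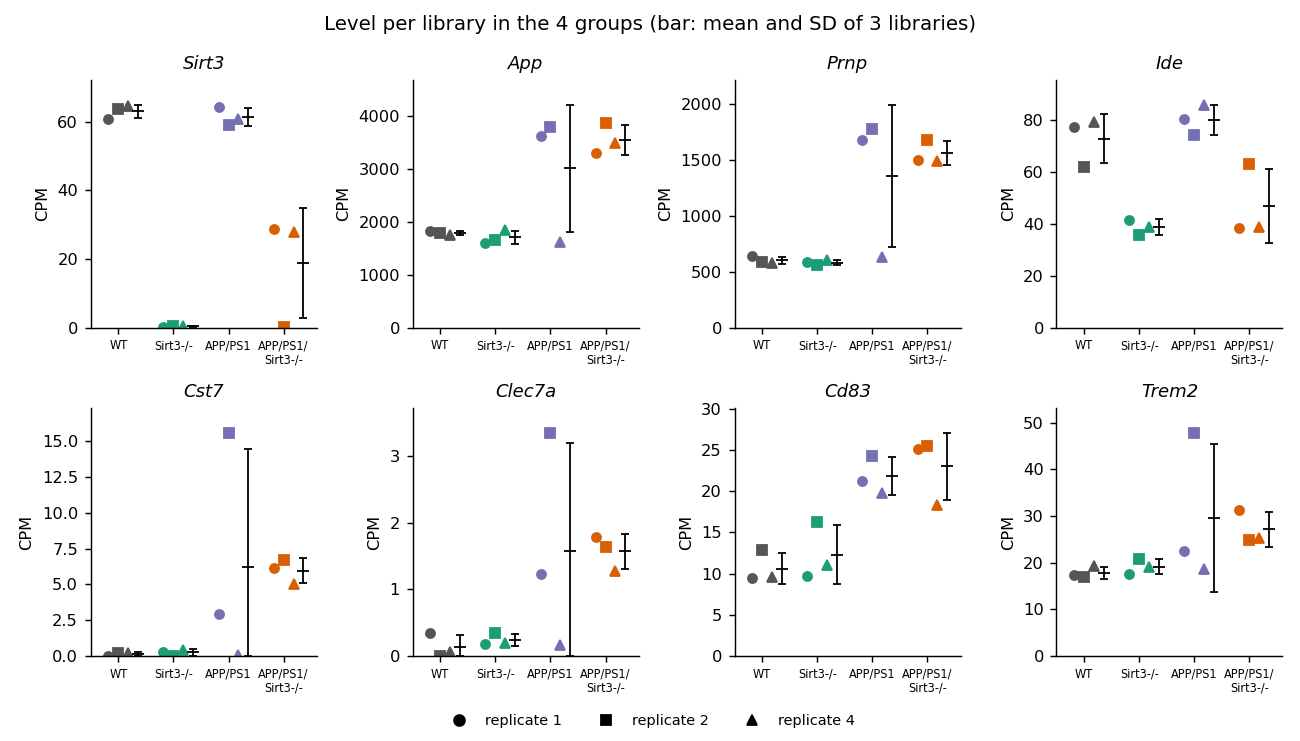
Level in CPM (vertical axis, from 0) of Sirt3, App, Prnp, Ide, Cst7, Clec7a, Cd83 and Trem2 in each library of the 4 groups (horizontal axis; circles, squares and triangles are replicates 1, 2 and 4, bars the mean and SD of 3 libraries). The double mutant libraries cluster well above WT for App, Prnp and Cst7, while Sirt3 and Ide separate its replicate 2 from replicates 1 and 4.

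The other inflammatory lists held no call in the main fit. Among homeostatic microglia genes, which mark resting microglia, 0 of 14 were called in the main fit, with a median log2 fold change of 0.13. The summed level of that list was 603 to 617 CPM in WT and 814 to 1017 CPM in the double mutant. The largest part of this difference was in Sparc, a secreted matrix protein also made by other glia, at 200.4, 211 and 202 CPM in WT and 561, 576 and 363 CPM in the double mutant. Sparc and Mertk, a receptor for engulfing dying cells, passed the threshold in the fit of 6 libraries, in opposite directions. Mertk was 46.2, 43.5 and 47.7 CPM in WT and 33.1, 30.2 and 39.2 CPM in the double mutant.

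Interferon-response genes were not called in either edgeR fit, and their levels were highest in double mutant replicate 1. Ifit3, an antiviral effector, was 10.3, 8.77 and 8.95 CPM in WT and 29.8, 11.1 and 10.8 CPM in the double mutant. Oas1a, an RNA sensor, was 0.856, 0.665 and 0.952 CPM in WT and 3.06, 1.06 and 1.33 CPM in the double mutant. The summed interferon list was 158 to 187 CPM in WT and 286, 174 and 169 CPM in the double mutant, so replicate 1 alone lay above the WT range. Of the 20 tested members 3 were higher without overlap, beside 13.0% of all genes tested. Ifit3 and Oas1a were among these 3 by a narrow margin in replicates 2 and 4. The median log2 fold change was 0.42.

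Complement and antigen presentation genes gave no call in either fit. C3, the central complement component, was 3.31, 6.31 and 2.41 CPM in WT and 6.52, 5.96 and 14.7 CPM in the double mutant, where replicate 4 was highest and the groups overlapped. C1qb, a chain of the initiating complex, was 43.7, 48.4 and 41.8 CPM in WT and 69.8, 47.8 and 55.2 CPM in the double mutant. The 15 complement genes tested had a median log2 fold change of 0.22, the 16 genes of antigen presentation 0.05, and the 19 genes of cytokines, NF-kB and the inflammasome 0.07. Of the 19 astrocyte genes tested none was called in the main fit. Gfap, the astrocyte filament protein, was 247, 269 and 204 CPM in WT and 401, 377 and 220.1 CPM in the double mutant, high in replicates 1 and 2. Slc1a2, the main glutamate transporter of astrocytes, was 2764, 2703 and 2945 CPM in WT and 2208, 2088 and 2137 CPM in the double mutant, without overlap, and passed the threshold in the fit of 6 libraries.

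**Figure D3:**
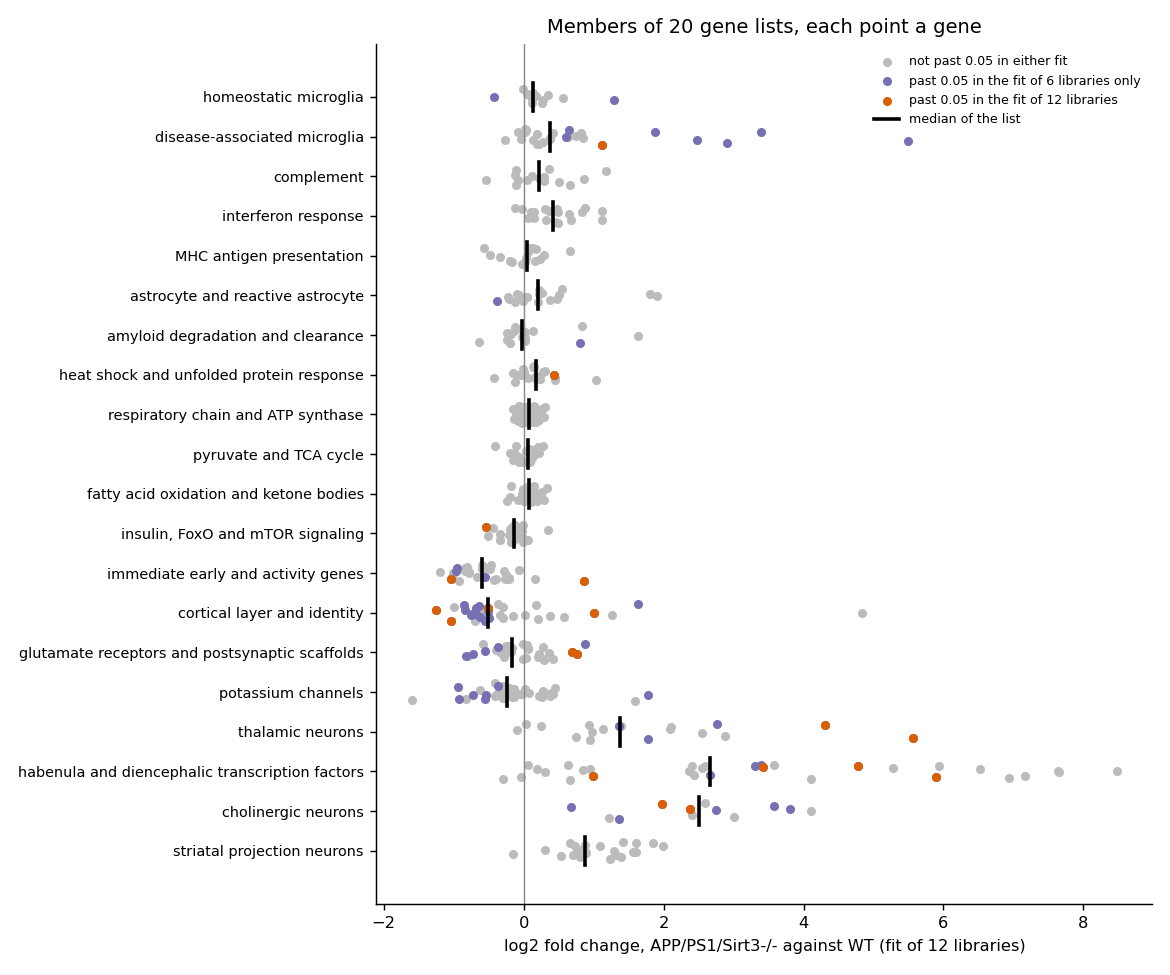
Log2 fold change between APP/PS1/Sirt3-/- and WT in the main fit (horizontal axis) for each tested member of 20 gene lists (vertical axis; points are genes, black bars list medians, orange points called in the main fit, purple points called in the fit of 6 libraries only). Disease-associated microglia genes reach 5.50, the mitochondrial lists stay close to 0, and the cortical and activity gene lists lie mostly below 0.

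None of the 16 genes of amyloid precursor processing and none of the 17 of amyloid clearance was called in the main fit, and App and Ece2 passed in the fit of 6 libraries. Ide was 77.3, 62 and 79.3 CPM in WT and 38.6, 63.3 and 38.8 CPM in the double mutant. Replicates 1 and 4 of the double mutant lay below every WT library, and replicate 2, the library with Sirt3 near 0, lay within the WT range. The main fit gave Ide a log2 fold change -0.63, standard error 0.17, adjusted p = 0.0862 (edgeR), which did not pass, and without replicates 1 and 4 of the double mutant the log2 fold change was -0.21. Ide in the Sirt3-/- libraries was 41.7, 35.6 and 38.8 CPM. Mme, which encodes neprilysin, was 5.48, 3.12 and 5.40 CPM in WT and 7.97, 7.39 and 9.78 CPM in the double mutant, without overlap and without a call in the 12-library or the 6-library fit. Ece2, a peptidase of the same family, was 41.6, 40.4 and 36.3 CPM in WT and 71.2, 74.2 and 61.4 CPM in the double mutant and passed the threshold in the fit of 6 libraries. The median log2 fold changes of the processing and clearance lists were 0.02 and -0.02.

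Of 23 heat shock and unfolded protein genes, Hspa5 rose and none fell. Hspa5, encoding the chaperone BiP that senses unfolded proteins, was 263, 234 and 248 CPM in WT and 337, 349 and 322 CPM in the double mutant (log2 fold change 0.43, standard error 0.09, adjusted p = 0.0352, edgeR; called under 14 of 23 alternatives). Without the 2 libraries that hold Sirt3 reads its log2 fold change was 0.48 and the call was lost. Of 19 genes of the heat shock and unfolded protein list with a promoter in the RefSeq table (GRCm38.p6), 5 held the endoplasmic reticulum stress element in the 250 bases before to 50 after their start. The letters searched on both strands were CCAAT and CCACG with 9 bases of any kind between them, found in 0.119% of the 32851 promoters of the table. That percentage counts promoters, of tested and untested genes alike, while the 5 of 19 counts genes, so these are not directly comparable. The 5 genes were Hspa5, Pdia6, Calr, Creld2 and Hsp90b1. The promoters of Hspa5 (chr2:34771840-34772139, plus strand) and Pdia6 (chr12:17266339-17266638, plus strand) are shown 5′ to 3′ with the element in capitals, since these genes had the largest and the next largest log2 fold changes of the 5.
Hspa5: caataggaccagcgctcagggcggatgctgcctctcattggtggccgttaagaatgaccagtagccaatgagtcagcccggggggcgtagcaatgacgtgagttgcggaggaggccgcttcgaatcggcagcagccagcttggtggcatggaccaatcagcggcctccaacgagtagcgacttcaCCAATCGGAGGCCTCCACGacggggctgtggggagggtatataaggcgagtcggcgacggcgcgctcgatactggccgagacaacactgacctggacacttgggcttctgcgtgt
Pdia6: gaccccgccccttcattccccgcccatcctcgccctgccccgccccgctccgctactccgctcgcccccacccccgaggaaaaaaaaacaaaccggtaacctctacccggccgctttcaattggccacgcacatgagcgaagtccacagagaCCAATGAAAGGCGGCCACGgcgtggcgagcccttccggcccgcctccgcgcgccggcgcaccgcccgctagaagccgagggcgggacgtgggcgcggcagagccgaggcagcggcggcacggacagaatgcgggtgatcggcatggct
A match describes the letters and not a bound site.

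Calr, Creld2 and Hsp90b1 are named for the element after their values were seen. All 5 genes with the element were higher in every double mutant library than in any WT library, although Hspa5 alone was called. Pdia6, a disulfide isomerase, was 128, 114 and 119.9 CPM in WT and 136, 142 and 148 CPM in the double mutant (edgeR adjusted p = 0.0805). Calr, the calcium-binding chaperone calreticulin, was 395, 386 and 387 CPM in WT and 442, 425 and 459 CPM in the double mutant. Creld2, a secreted stress protein, was 20.1, 21.8 and 21.2 CPM in WT and 24.4, 23.8 and 26 CPM in the double mutant. Hsp90b1, encoding GRP94, was 168, 187 and 164 CPM in WT and 199, 199 and 191 CPM in the double mutant. The log2 fold changes of these 4 were 0.24, 0.18, 0.23 and 0.18. Over the whole list 11 members were higher without overlap and 1 lower, beside 13.0% and 12.5% of all genes tested. The median log2 fold change was 0.17. In cholesterol synthesis and lipoproteins, 2 of 25 genes were called, Fdps (farnesyl diphosphate synthase) at 46.5, 47.5 and 46.5 CPM in WT and 62, 64.6 and 56.7 CPM in the double mutant, and the apolipoprotein gene Apoc1 at 0.685, 0.864 and 0.762 CPM and 3.58, 2.80 and 3.47 CPM.

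Nuclear genes of mitochondrial fuel oxidation held no call. Of 76 genes of the respiratory chain and ATP synthase, 24 of pyruvate and the tricarboxylic acid cycle and 23 of fatty acid oxidation and ketone bodies, none was called in either edgeR fit. Their median log2 fold changes were 0.07, 0.06 and 0.08. All log2 fold changes in the respiratory chain list lay between -0.15 and 0.30. Sdha, the flavoprotein of complex II and a SIRT3 substrate, was 372, 393 and 382 CPM in WT and 423, 473 and 437 CPM in the double mutant. Acat1, a ketone-body enzyme, was 69, 69.2 and 66.5 CPM in WT and 79, 76.9 and 77.2 CPM in the double mutant. Prdx3, the matrix peroxiredoxin, was 32.3, 33.9 and 32.8 CPM in WT and 39.7, 44.8 and 35.8 CPM in the double mutant. Genes of the mitochondrial genome summed to 20494 to 24411 CPM in WT and 23578 to 25368 CPM in the double mutant. Of the 12 tested none was called in the main fit, with 8 log2 fold changes above 0 and 4 below. In the fit of 6 libraries mt-Nd3 was called lower (log2 fold change -0.56 in the main fit). Libraries were made from polyadenylated RNA, which holds mitochondrial transcripts incompletely.

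Foxo3, a transcription factor restrained by insulin signalling and a named SIRT3 substrate, was the single call among 24 tested SIRT3 substrates and antioxidant genes and among 30 insulin, FoxO and mTOR genes. It was 127, 133 and 128 CPM in WT and 89.1, 89.3 and 88.9 CPM in the double mutant (log2 fold change -0.54, standard error 0.09, adjusted p = 0.0257, edgeR; called under 15 of 23 alternatives). The 3 double mutant values lay within 1 CPM of each other and well below WT. Without both libraries that hold Sirt3 reads the log2 fold change was -0.54 but the edgeR call was lost (adjusted p = 0.0768, range over alternatives 9.67e-09 to 0.949). In the insulin, FoxO and mTOR list 28 of 30 genes had a log2 fold change below 0, with a median of -0.14. Of the 30, 10 were lower without overlap, beside 12.5% of all genes tested. Igf1r, the receptor for insulin-like growth factor, was 46.1, 39.3 and 42.6 CPM in WT and 33.1, 39.2 and 29.3 CPM in the double mutant. Akt2, the insulin-responsive kinase, was 182, 199 and 208 CPM in WT and 159, 121 and 186 CPM in the double mutant, lowest in replicate 2.

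The rises with the smallest adjusted p that belong to no list were led by Serpine2 and Sccpdh. Serpine2, encoding the serine protease inhibitor nexin-1, was 137, 131 and 136 CPM in WT and 192, 195 and 186 CPM in the double mutant (log2 fold change 0.51, standard error 0.07, adjusted p = 0.00963, edgeR). It was called under 19 of 23 alternatives, the fit without the 2 libraries with Sirt3 reads among them. Sccpdh, a putative saccharopine dehydrogenase, was 39.9, 40.5 and 41.8 CPM in WT and 60.5, 59 and 53.6 CPM in the double mutant, called under 18 of 23 alternatives. Srgap1, a GTPase-activating protein of neuronal migration, was 13.7, 13.8 and 15.6 CPM in WT and 37.4, 31.9 and 31.8 CPM in the double mutant (log2 fold change 1.23, standard error 0.17, adjusted p = 0.024). Pbx3, a homeodomain cofactor, was 5.71, 7.84 and 7.68 CPM in WT and 20.8, 16.8 and 21.6 CPM in the double mutant. Rmst, a long noncoding RNA of neural progenitors and midbrain, was 3.37, 3.79 and 3.11 CPM in WT and 9.01, 11.6 and 6.60 CPM in the double mutant.

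Among the falls Scara3, a scavenger receptor that responds to oxidative stress, had the smallest adjusted p. It was 42.2, 50.2 and 48.3 CPM in WT and 25.6, 27.3 and 27.2 CPM in the double mutant (log2 fold change -0.81, standard error 0.11, adjusted p = 0.00963, edgeR; called under 19 of 23 alternatives). Fxyd5, a regulator of the sodium pump, was 28.3, 28.2 and 30.3 CPM in WT and 17.1, 16.9 and 19.1 CPM in the double mutant. Rasl11b, a small GTPase of the Ras family, was 52.4, 62 and 66.9 CPM in WT and 37.3, 33.7 and 35.4 CPM in the double mutant. Tmem44, a transmembrane protein, was 183, 171 and 193 CPM in WT and 113, 105 and 119.8 CPM in the double mutant. In each of these 4 genes the 3 double mutant libraries lay close together and below every WT library. Plcd3, a phospholipase C, fell by 0.75 on the log2 scale and Plekhh3 by 0.57.

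By size the largest falls were Gm765 and Zfp648, both weakly expressed. Zfp648, a zinc finger gene, was 3.71, 3.85 and 4 CPM in WT and 1.10, 0.739 and 0.521 CPM in the double mutant (log2 fold change -2.29, standard error 0.44, adjusted p = 0.0327, edgeR). Gm765 was 3.37, 4.72 and 3.87 CPM in WT and 1.10, 0.792 and 0.521 CPM in the double mutant. The groups did not overlap for either gene. Gm16315, Hist2h4 and BC061194 fell by 1.29, 1.24 and 1.20 on the log2 scale. Igfn1 was 132, 158 and 121 CPM in WT and 70.3, 75.7 and 48.7 CPM in the double mutant. Col5a1, a fibrillar collagen, was 76.1, 70.2 and 78.1 CPM in WT and 39.2, 44 and 29.2 CPM in the double mutant. Thbs4, a thrombospondin, was 15.6, 19.5 and 21.4 CPM in WT and 8.95, 7.60 and 8.97 CPM in the double mutant. Col5a1 and Thbs4 were the 2 members called of 28 thrombospondin and matrix genes, whose median log2 fold change was -0.04. Col25a1, a neuronal collagen found in amyloid plaques, was 31.1, 24.8 and 25.1 CPM in WT and 57.3, 54.9 and 53.1 CPM in the double mutant and passed the threshold in the fit of 6 libraries.

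**Figure D4:**
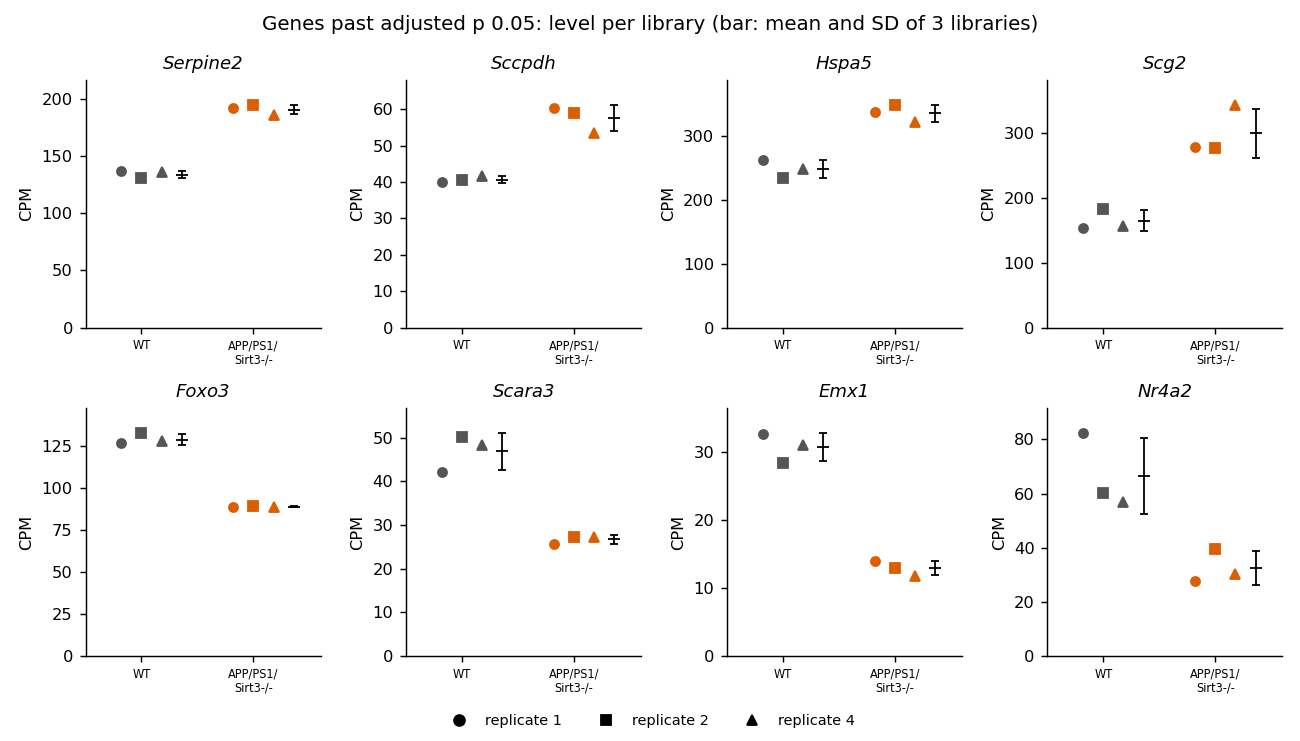
Level in CPM (vertical axis, from 0) of 8 genes called in the main fit, in the 3 WT and the 3 APP/PS1/Sirt3-/- libraries (horizontal axis; circles, squares and triangles are replicates 1, 2 and 4, bars the mean and SD). Serpine2, Sccpdh, Hspa5 and Scg2 are higher and Foxo3, Scara3, Emx1 and Nr4a2 lower in each of the 3 double mutant libraries than in any WT library.

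Of 35 cortical identity genes 3 fell and 1 rose, beside 0.354% and 0.774% of all genes tested. Emx1, a homeodomain factor of cortical excitatory neurons, was 32.6, 28.4 and 31 CPM in WT and 13.9, 13 and 11.8 CPM in the double mutant (log2 fold change -1.25, standard error 0.24, adjusted p = 0.0408, edgeR). Cux1, a factor of upper-layer neurons, was 129.6, 136 and 144 CPM in WT and 112, 94.3 and 83.4 CPM in the double mutant. Nr4a2, an orphan nuclear receptor, was 82.4, 60.3 and 56.7 CPM in WT and 27.6, 39.4 and 30.3 CPM in the double mutant. Foxp2, a factor of deep-layer, thalamic and striatal neurons, was the member called higher, at 12.3, 9.77 and 12.8 CPM in WT and 24.4, 20.9 and 24.6 CPM in the double mutant. In the fit of 6 libraries 14 members were called lower and 2 higher, beside 2.24% and 2.43% of all genes tested there. Lower without overlap were 23 of the 35, beside 12.5% of all genes tested. The summed list was 4401 to 4944 CPM in WT and 3036, 3185 and 3715 CPM in the double mutant, with a median log2 fold change of -0.51. Of the 35 genes 34 were at or above 1 CPM in each of the 6 libraries, the exception being Fezf1.

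Of 31 activity-dependent genes 1 fell (Nr4a2) and 1 rose (Scg2), although 29 had a log2 fold change below 0, with a median of -0.59. The summed list was 3735 to 4005 CPM in WT and 2365, 2097 and 3444 CPM in the double mutant. Fos, the classic immediate early gene, was 46.5, 57.1 and 74 CPM in WT and 29, 21.4 and 39.3 CPM in the double mutant. Egr1 was 631, 737 and 659 CPM in WT and 314, 276 and 457 CPM in the double mutant, and Dusp1, a phosphatase of MAP kinases, 59.5, 65.7 and 83.7 CPM and 38.1, 30.3 and 50.5 CPM. All 3 were lower without overlap, yet none was called in the main fit. Double mutant replicate 4 lay nearest to WT for each. Scg2, the precursor of secretoneurin, was 154, 183 and 157 CPM in WT and 279, 277 and 344 CPM in the double mutant (log2 fold change 0.86, standard error 0.18, adjusted p = 0.0436, edgeR).

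Marker genes of regions outside the cortex were present at unequal levels in the double mutant libraries. In bulk tissue, fewer cells of a type and less RNA per cell cannot be told apart. Thalamic genes summed to 534 to 577 CPM in WT and to 1116, 1124 and 588 CPM in double mutant replicates 1, 2 and 4, so replicate 4 lay near WT. Transcription factors of habenula and diencephalon summed to 105 to 112 CPM in WT and to 190.1 to 221 CPM in the double mutant. Cholinergic genes summed to 97.2 to 103 CPM in WT and to 194 to 267 CPM in the double mutant. Striatal genes summed to 1341 to 2102 CPM in WT and to 3221, 1301 and 4633 CPM, so replicates 1 and 4 lay above WT and replicate 2 below it. Choroid plexus genes were high in WT replicate 2 (2742 CPM, against 233 and 259 in the others) and in double mutant replicates 1 and 2 (1113 and 879 CPM, against 239 in replicate 4).

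Hippocampal genes summed to 468 to 655 CPM in WT and 542 to 616 CPM in the double mutant, and GABAergic interneuron genes to 2059 to 2195 CPM and 1884 to 2198 CPM. Oligodendrocyte genes summed to 5657 to 8381 CPM in WT and 6544 to 8858 CPM in the double mutant, astrocyte genes to 5050.5 to 5298 CPM and 4346 to 4721 CPM, endothelial and mural genes to 622 to 678 CPM and 674 to 707 CPM, and blood genes to 298 to 316 CPM and 336 to 353 CPM. Meningeal genes summed to 1131 to 1215 CPM in WT and were low in double mutant replicate 4 (478 CPM, against 1004 and 1012). With the averaged levels of the thalamic, striatal and choroid plexus lists as 3 covariates, the main fit left 3 genes called higher and 0 lower, none of them among the 188, and 187 of the 188 kept their direction. Gbx2 and Slitrk6, called in the main fit, belong to the thalamic list, so their own levels enter a covariate. With 3 more terms the fit also has less left to estimate the spread from. The part of regional content in each call was not tested.

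**Figure D5:**
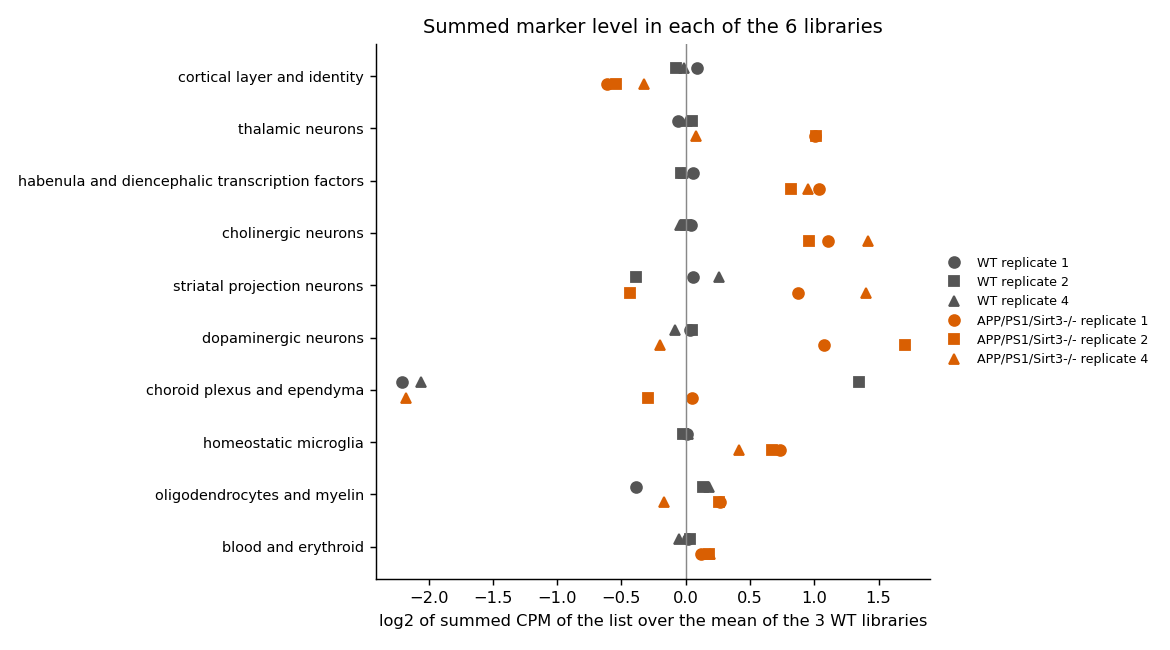
Summed CPM of 10 marker lists (vertical axis) in each of the 6 libraries, as the log2 ratio to the mean of the 3 WT libraries (horizontal axis; grey WT, orange APP/PS1/Sirt3-/-, symbols as replicates). Cortical genes lie below and cholinergic and diencephalic genes above WT in all 3 double mutant libraries, while thalamic, striatal and dopaminergic genes differ among those libraries.

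Apart from gene copies, the largest rises included genes of the regional lists that stood on few WT reads. Lhx1, a LIM homeodomain factor of diencephalic neurons, was 0, 0.133 and 0 CPM in WT and 3.81, 3.54 and 1.33 CPM in the double mutant, on 2 reads in the 3 WT libraries together and 156 in the 3 double mutant libraries (65.2-fold, exact 95% counting interval 19.1 to 585). Its antisense neighbour Lhx1os had 1 read in the 3 WT libraries together and 129 in the 3 double mutant libraries (125-fold, exact 95% counting interval 20.5 to 4620), and since the counting is not stated to use strand, reads of the 2 genes cannot be told apart where they overlap. Gbx2, a thalamic homeobox gene, was 2.77, 3.06 and 1.04 CPM in the double mutant on 2 reads in the 3 WT libraries together and 124 in the 3 double mutant libraries (57-fold, exact 95% counting interval 15.1 to 466). Uncx, a homeobox gene of diencephalon and midbrain, was 2.89, 2.59 and 0.752 CPM in the double mutant on 2 reads in the 3 WT libraries together and 112 in the 3 double mutant libraries (51.5-fold, exact 95% counting interval 13.6 to 421). Replicate 4 was the lowest double mutant library for each of these genes. Of 31 tested transcription factors of this kind 4 were called higher (Lhx1, Lhx5, Irx1 and Ebf1), and the median log2 fold change was 2.66. Of 19 thalamic genes 2 were called higher (Gbx2 and Slitrk6), with a median of 1.37. Over all genes tested the main fit called 0.774% higher.

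All 12 cholinergic genes tested had a positive log2 fold change, and 2 rose. Slc18a3, the vesicular acetylcholine transporter, was 0.228, 0.266 and 0.571 CPM in WT and 4.21, 3.06 and 5.67 CPM in the double mutant. Tacr1, the receptor of substance P, was 2.68, 1.59 and 2.67 CPM in WT and 9.24, 7.23 and 11.2 CPM in the double mutant (log2 fold change 1.98, standard error 0.31, adjusted p = 0.0256, edgeR). Tacr1 and the choline transporter Slc5a7 were the members called in the main fit, and 7 were called in the fit of 6 libraries. Over all genes tested these fits called 0.774% and 2.43% higher. The median log2 fold change of the list was 2.5. Against Sirt3-/- the double mutant differed in Tacr1 by -0.13 on the log2 scale, and in Slc18a3 by -0.21, and neither difference passed the threshold (edgeR adjusted p = 0.903 and 0.93).

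Of 14 tested genes of dopaminergic neurons 4 were called higher in the main fit (Th, Slc18a2, Ret and Slc10a4) and 1 lower. Over all genes tested these shares were 0.774% and 0.354%. The lower one was Nr4a2, given above among the cortical genes. The genes were gathered after their values were seen and are described without a test as a group. Th and Slc6a3 also belong to the neuropeptide list, where Th was the 1 call among 24, and Slc18a2, Ret and En1 are named after their values were seen. Th, the rate-limiting enzyme of dopamine synthesis, was 0.742, 1.79 and 1.65 CPM in WT and 19.3, 36.2 and 5.15 CPM in the double mutant (log2 fold change 3.87, standard error 0.74, adjusted p = 0.0473, edgeR; called under 7 of 22 alternatives). Slc6a3, the dopamine transporter, was 0, 0.332 and 0 CPM in WT and 26.1, 60.3 and 0.289 CPM in the double mutant. Slc18a2, the vesicular monoamine transporter, was 2.85, 3.12 and 2.92 CPM in WT and 20, 31.6 and 7.23 CPM in the double mutant. Ret, the receptor of glial-derived neurotrophic factors, was 5.14, 5.32 and 5.21 CPM in WT and 31.8, 47.6 and 15.9 CPM in the double mutant. En1, a homeobox gene of midbrain dopaminergic neurons, was 0, 0.133 and 0 CPM in WT and 4.10, 4.85 and 0 CPM in the double mutant. Replicate 2 was the highest for all 5 genes, and replicate 4 was at or near the WT level for Slc6a3 and En1.

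The promoter of Th holds a cAMP response element, TGACGTCA, as does that of Scg2. These letters, the same on both strands, lie in 1.79% of the 32851 promoters of the RefSeq table and in those of 6 of the 131 called genes matched there (Dhx36, Scg2, Slc18a2, Tecpr2, Th and Uncx). The percentage counts promoters, of tested and untested genes alike, while the 6 of 131 counts genes, so these are not directly comparable. The promoters of Th (chr7:142899946-142900245, minus strand) and Scg2 (chr1:79439977-79440276, minus strand) on GRCm38.p6 are shown 5′ to 3′ with the element in capitals, since both genes rose in the main fit and the element is known as the site of CREB, a factor activated by cAMP and calcium.
Th: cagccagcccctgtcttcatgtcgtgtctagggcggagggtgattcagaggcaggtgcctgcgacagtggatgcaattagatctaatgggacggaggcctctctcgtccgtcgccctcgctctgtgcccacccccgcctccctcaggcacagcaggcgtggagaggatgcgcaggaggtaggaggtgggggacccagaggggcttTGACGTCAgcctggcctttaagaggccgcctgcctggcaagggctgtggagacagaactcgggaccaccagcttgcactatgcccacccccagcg
Scg2: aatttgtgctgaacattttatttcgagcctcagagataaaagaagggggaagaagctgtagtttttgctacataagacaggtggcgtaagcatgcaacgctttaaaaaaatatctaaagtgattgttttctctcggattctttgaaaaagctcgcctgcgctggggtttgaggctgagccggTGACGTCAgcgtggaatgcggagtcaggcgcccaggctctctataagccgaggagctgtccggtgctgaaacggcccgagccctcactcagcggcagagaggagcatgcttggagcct
A match is a description of these letters only.

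Striatal genes showed the other pattern among double mutant libraries. Tac1, the precursor of substance P, was 12.8, 9.44 and 16.8 CPM in WT and 45.7, 16.4 and 79.6 CPM in the double mutant. Drd2, the D2 dopamine receptor of indirect-pathway neurons, was 9.71, 3.66 and 13.4 CPM in WT and 30.8, 8.44 and 43 CPM in the double mutant. Replicate 2 of the double mutant overlapped WT for both genes, replicates 1 and 4 did not. None of the 25 striatal genes tested was called in either fit, although 24 had a positive log2 fold change and the median was 0.88.

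Of 34 glutamate receptor and scaffold genes 2 were called in the main fit, both higher, and the median log2 fold change was -0.17. Grin1, the obligatory NMDA receptor subunit, was 446, 406 and 415 CPM in WT and 315, 306 and 361 CPM in the double mutant, lower without overlap, and passed the threshold in the fit of 6 libraries.

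At the presynapse 2 of 32 genes rose. Unc13c, a vesicle-priming factor, was 30.3, 25.9 and 31.5 CPM in WT and 96.3, 91 and 48.7 CPM in the double mutant, and Syt9, a synaptotagmin, 7.31, 6.58 and 5.97 CPM and 24.2, 32.1 and 13.7 CPM. Both were lowest in replicate 4 of the double mutant, as thalamic genes were. Stx1a, the syntaxin of synaptic vesicle fusion, was 401, 356 and 383 CPM in WT and 235, 228 and 257 CPM in the double mutant, without a call in the main fit. Htr1d, a serotonin autoreceptor, was the call among 12 serotonin receptors, at 1.14, 0.598 and 1.08 CPM in WT and 3.87, 2.37 and 5.44 CPM in the double mutant, while Htr5a was 20, 19.4 and 17.6 CPM and 13.2, 13.2 and 14.9 CPM. Of 44 potassium channel genes none was called in the main fit, and the median was -0.23. Lower without overlap were 16 of the 44, beside 12.5% of all genes tested. Kcnt2, a sodium-activated channel, was 19.6, 23.3 and 22.5 CPM in WT and 13.9, 14.5 and 16.5 CPM in the double mutant.

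Diacylglycerol kinases, which turn the second messenger diacylglycerol into phosphatidic acid, gave no call among 10 in the main fit. Dgkk was 0.685, 0.199 and 0.444 CPM in WT and 10.4, 10.7 and 9.31 CPM in the double mutant, and Dgkh 16.7, 11.8 and 14.4 CPM and 8.95, 8.44 and 8.22 CPM. The groups were separated for both genes, and both passed the threshold in the fit of 6 libraries, in opposite directions. Dgkk in the single mutants ran from 0.496 to 11.2 CPM in Sirt3-/- and from 4.05 to 7.65 CPM in APP/PS1, a spread that enters the main fit.

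Of 21 endothelial and mural genes 1 fell and none rose. Pdgfrb, the receptor of pericytes for platelet-derived growth factor, was 37.2, 34.6 and 38.3 CPM in WT and 28.9, 26.2 and 29.1 CPM in the double mutant (log2 fold change -0.39, standard error 0.07, adjusted p = 0.0327, edgeR). The endothelial receptors for vascular endothelial growth factor lay in the other direction, with Kdr at 13.7, 18.9 and 14 CPM and 21.1, 22.3 and 21.3 CPM and Flt1 at 60.9, 60.1 and 69.1 CPM and 79, 74.9 and 79.4 CPM. Neither passed the threshold in the main fit. Of 17 clock genes none was called in the main fit, and Bhlhe40, Hlf and Nr1d1 passed the threshold in the fit of 6 libraries, all lower. Nr1d1, the repressor REV-ERBα, was 103, 83.6 and 103 CPM in WT and 72.2, 70.8 and 75.8 CPM in the double mutant. The hour of tissue collection was not found in the labels or methods.

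Gene copies held the smallest adjusted p of the comparison. Eif3j2 was 0.742, 0.532 and 0.889 CPM in WT and 9.47, 9.60 and 14.9 CPM in the double mutant (log2 fold change 3.96, standard error 0.30, adjusted p = 5.79e-05, edgeR; called under 21 of 22 alternatives). Its near-identical partner Eif3j1, a subunit of a translation initiation factor, was 36.9, 37 and 33.9 CPM in WT and 27.4, 31.1 and 17.6 CPM in the double mutant. Per length, the authors' FPKM values averaged 6.51 for Eif3j1 and 0.297 for Eif3j2 in WT, and 4.75 and 4.79 in the double mutant. Only the averages of the 2 copies were level there, since replicate 4 held the least Eif3j1 and the most Eif3j2 of its group. The sum of both was 36.6 ± 1.6 CPM (SD, n = 3) in WT and 36.7 ± 4.08 CPM (SD, n = 3) in the double mutant, a difference smaller than the spread between libraries.

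Pcna-ps2, a copy of the replication clamp gene Pcna, also rose. It was 0.171, 0.199 and 0.127 CPM in WT and 2.19, 4.01 and 4.74 CPM in the double mutant, on 8 reads in the 3 WT libraries together and 196 in the 3 double mutant libraries (22-fold, exact 95% counting interval 11 to 51.8). Pcna was 28.5, 33.9 and 34.5 CPM in WT and 27.5, 28.4 and 24 CPM in the double mutant, and the sum of both was 32.5 ± 3.29 CPM (SD, n = 3) and 30.3 ± 1.92 CPM (SD, n = 3). Reads of near-identical copies can be split between them in counting, so the level of each copy is uncertain. Both copies were higher in each of the 3 double mutant libraries than in any WT library. Eif3j1 and Pcna are named for these copies after their values were seen.

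Over all genes tested the main fit called 1.13%, in either direction. Within 20 Mb of App, 1 of 107 other genes tested was called (0.935%, B3galt5). Within 20 Mb of Sirt3, 5 of 293 were called (1.71%), namely Cyp2e1, Gpr26, Mrgpre, Ppapdc1a and Th. Among genes tested in both fits, the fit of 6 libraries called 2 of 105 near App (1.90%) and 13 of 283 near Sirt3 (4.59%), beside 4.67% over all 16098. Over the whole autosomes and X the share of tested genes called ran from 0.337% on chromosome 12 to 2.11% on chromosome 18. None was called among 7 tested genes of the Y chromosome and 12 of the mitochondrial genome. The genes near Sirt3 and App are named for their position, after their values were seen.

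Few genes separated the double mutant from the single mutants. Against APP/PS1 the main fit called 4 genes (0.024%), all higher, namely Eif3j2, Gm3650, Pla2g4e and Pcna-ps2, and DESeq2 on all 12 libraries called 7. Of the 16673 genes tested in the main fit 810 had an unadjusted p under 0.05. A share of about 0.05 would pass if no gene differed, and the 810 lie near it. Pla2g4e, a cytosolic phospholipase A2, was 5.78, 8.81 and 9.59 CPM in APP/PS1, 8.56, 11.9 and 10.5 CPM in WT and 30.1, 35 and 50.5 CPM in the double mutant. Against Sirt3-/- the main fit called 0 genes (0.0%), and DESeq2 called 128. Here 1895 of the 16673 genes had an unadjusted p under 0.05 in the main fit, more than that share. For Hspa5 the log2 difference was 0.48 against Sirt3-/- (edgeR adjusted p = 0.0945) and 0.26 against APP/PS1 (0.974). For Foxo3 it was -0.38 and -0.12, and for Scara3 -0.28 and -0.19. The comparisons share the double mutant libraries, and a difference that does not pass is not shown to be absent.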

How the data were processed

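RNA-seq libraries were made by the authors from polyadenylated RNA of cortex (NEBNext kit), and reads were mapped to GRCm38/mm10 with TopHat, allowing up to 2 mismatches. The gene counter and its annotation release are not stated in the labels or methods. The deposited table holds read counts per gene, which were used as deposited, and FPKM values normalized by the authors for gene length and depth, used only to compare levels between gene copies. Its columns of group means, fold changes and p-values of the authors' own comparisons were not used, and 0 columns of unmapped samples were used.

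Counts were filtered with filterByExpr, scaled by TMM and fitted with edgeR 4.0.16 (R 4.3.3) as 4 group means over 12 libraries, with the robust quasi-likelihood test and Benjamini-Hochberg adjustment at 0.05. The fit was also run on simulated counts with known changes, drawn from the means and spread of these data. The outcome is not reported here. Alternatives used DESeq2 1.42.0, RLE factors, the 6 libraries alone, other filters (no filter, or 1 CPM in all 12 libraries), marker or sex covariates, a replicate block and fits without single libraries. One, without the 4 libraries holding Y-linked reads, was chosen after seeing the data. The fit without the double mutant libraries that hold Sirt3 reads and the sex covariate were likewise defined by reads in these data, not by labels. Ratios of genes with few reads carry exact 95% counting intervals. Tables were made in scipy 1.17.1, numpy 2.4.6 and pandas 2.3.3 under Python 3.11.15, and figures in matplotlib 3.10.9.

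Named genes were Sirt3, App and genes the study names, the 10 largest changes and 10 smallest adjusted p in each direction among called genes without overlap, and up to 4 members per list by adjusted p. Gfap, Trem2 and Egr1 were named for their known roles after their values were seen, as were others marked so in the text. The members and gene lists were chosen with earlier results of these data known. Promoters came from the RefSeq table of GRCm38.p6. Some genes that meet the naming rule are not reported here.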

Additional observations from a re-analysis of the deposited data

How the results depend on the processing

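Against WT the counts of higher and lower genes (129 and 59) became 616 and 431 with DESeq2 on 12 libraries, 578 and 562 with DESeq2 on 6, 391 and 361 with edgeR on 6, 47 and 20 without the 4 libraries with Y-linked reads, 150 and 95 without a low-count filter, and 3 and 0 with region covariates. Leaving out 1 library at a time gave 2 to 580 higher and 0 to 592 lower. Against APP/PS1 the count of 4 became 7 and 30 with DESeq2 on 12 and 6 libraries, 2 with edgeR on 6, 1 with the strict filter, 7 without the 2 double mutant libraries with Sirt3 reads, and 2 to 6 without single libraries. Against Sirt3-/- the count of 0 became 128 and 61 with DESeq2, 3 with edgeR on 6 libraries, 36 without Y-linked libraries, 26 without a filter, 7 with region covariates, 8 with a sex covariate, 4 with the strict filter, 140 without the 2 libraries with Sirt3 reads, and 0 to 289 without single libraries. With the replicate block 72 genes were higher and 43 lower against WT, 4 differed from APP/PS1 and 10 from Sirt3-/-. Deviations of same-numbered libraries correlated at -0.056, 0.155 and 0.205 for numbers 1, 2 and 4, so the numbers were not taken to pair libraries. Number 4 nevertheless marked the libraries with Y-linked reads in every group, a shared factor left out of the main fit. With the sex covariate 123 genes were higher and 70 lower against WT.

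Over all alternatives, 1839 values of named genes kept direction and side of the threshold, 486 lost a call, 170 gained one and 4 changed sign. With region covariates Mertk was 0.14, Ifit3 -0.44 and mt-Nd3 0.30. Drd2 was -0.09 without the 2 libraries with Sirt3 reads. The cause was not tested in any of these. Genes under 1 CPM in WT rest on few reads, so their fold changes are uncertain. The counting intervals, given for some of them, leave out the spread between libraries.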
